A study of Mus musculus with 4 samples.

Results

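The cells described here are 283 barcodes of adult mouse back skin that carried transcripts of white blood cells and of major histocompatibility complex (MHC) class II but few transcripts of complement C1q, the set expected to hold skin dendritic cells and monocyte-derived cells. They were chosen by measured values, in UMIs (unique molecular identifiers, each standing for 1 captured transcript molecule). A barcode needed at least 200 genes and at most 10% mitochondrial UMIs. It also needed a UMI of at least 3 of the 7 immune genes Ptprc, Coro1a, Laptm5, Lcp1, Cd53, Fcer1g and Tyrobp, no UMI of Cd3d, Cd3e or Cd3g (T cells) and under 3 UMIs of Cd207 (Langerhans cells). Finally C1qa, C1qb and C1qc together had to stay under 5 UMIs per 10000, and Cd74, H2-Aa and H2-Ab1 together had to reach 50 per 10000. The 283 members were drawn from 22819 barcodes that passed the first filter, of 23455 in the matrix, and 1313 of the 22819 passed the immune gene step. Every difference in these genes follows from that choice and is given as a description.

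The 4 libraries came from CD1 mice of 7 to 8 weeks, and each group was 1 library. Dorsal skin cells were sorted by flow cytometry and captured on a droplet platform that tags transcripts near their 3′ end. The groups were Ovol1 null skin after imiquimod, Ovol1 null skin untreated, control skin after imiquimod and control skin untreated. Imiquimod was given once, as 62.5 mg of cream at 5% on the shaved back. The labels do not give the control allele, the number or sex of mice per library, or the sort gate. Ovol1 is a DNA-binding regulator of epithelial differentiation, and its UMIs did not fall in the libraries labelled null. Among all other kept cells Ovol1 stood at 45.1 CPM (UMIs per 1e+06 UMIs) in the library labelled Ovol1 null imiquimod, 24.6 in the one labelled Ovol1 null untreated, 22.6 in control imiquimod and 9.28 in control untreated. Members held 1, 3, 1 and 0 Ovol1 UMIs in that order. In the other kept cells the 8 keratinocyte markers summed to 16980, 16612.5, 16785 and 8971 CPM in the same order. The share of keratinocyte RNA thus differed between the untreated libraries, and Ovol1 was not compared within keratinocytes. A 3′ tag outside the deleted stretch checks nothing, so the genotype stays a label here, and those libraries are called labelled null.

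Dendritic cells take up antigen in the dermis, load peptides on MHC class II and class I molecules, and carry them to draining lymph nodes. Conventional dendritic cells of type 2 bear C-type lectins such as Cd209a and Clec10a, while type 1 cells bear Xcr1 and cross-present. On maturation a dendritic cell gains the chemokine receptor CCR7, the actin-bundling protein fascin and the chemokine CCL22, and leaves the skin. Monocytes that enter inflamed dermis also gain class II, and the boundary between them and dendritic cells is not sharp in transcripts. Imiquimod engages Toll-like receptor 7, which sets off type I interferon in several myeloid cell types, and interferon in turn switches on antiviral genes through a promoter element called the interferon-stimulated response element.

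The stretches below are from gene promoters, since interferon-stimulated genes were higher after imiquimod and H2-Eb1 differed between libraries far more than H2-Aa. Each is the part of the 300 bases around the transcription start (250 before to 50 after) that lies around a match, with the match in capitals, 5′ to 3′ on the gene's strand, from RefSeq on GRCm38.p6. Bst2 encodes tetherin, which holds budding virus at the membrane, and its window is at chr8:71537557-71537632 on the minus strand.
Bst2: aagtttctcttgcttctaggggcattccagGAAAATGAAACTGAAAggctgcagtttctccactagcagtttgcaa
Isg15 encodes a ubiquitin-like modifier, with its window at chr4:156200845-156200926 on the minus strand.
Isg15: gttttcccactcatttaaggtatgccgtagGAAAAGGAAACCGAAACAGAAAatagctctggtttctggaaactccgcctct
The capitals in both are matches to the core of the interferon-stimulated response element, spelled GAAA, then any 2 bases, then GAAA, searched on both strands with overlapping matches merged. Of 32851 promoters searched, 1131 (3.44%) held it. Counted by gene, where a match in any promoter of the gene sufficed, 14 of the 23 interferon-stimulated genes with a promoter among them held it. The 2 counts are of unlike units. Irf7 had no match in its window.

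For class II, H2-Aa (the alpha chain of I-A, window chr17:34287837-34287904 on the minus strand) and H2-Eb1 (the beta chain of I-E, window chr17:34305775-34305842 on the plus strand) are shown with the Y box CTGATTGG in capitals, a proximal element of class II promoters.
H2-Aa: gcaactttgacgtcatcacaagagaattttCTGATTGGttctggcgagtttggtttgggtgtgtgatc
H2-Eb1: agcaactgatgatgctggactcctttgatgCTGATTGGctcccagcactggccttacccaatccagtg
The Y box was found in 1346 of the 32851 promoters (4.10%), on either strand. Counted by gene in the same way, it was found in 3 of the 7 class II genes with a promoter, H2-Aa, H2-Eb1 and H2-Oa. H2-Aa and H2-Eb1 thus hold the same 8 bases within the window, yet their transcripts differed between libraries as described further on. A match to letters is a description and not evidence of binding.

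Members numbered 28 in labelled-null imiquimod, 69 in labelled-null untreated, 55 in control imiquimod and 131 in control untreated. As a share of kept barcodes that was 0.494%, 1.30%, 0.970% and 2.12% in the same order, and as a share of immune-gated barcodes 7.51%, 26.7%, 32.7% and 25.5%. The labelled-null imiquimod library thus had the fewest members on both measures, and sort and capture can set such shares. Median depth per member was 7996 UMIs in labelled-null imiquimod, 5484 in labelled-null untreated, 5330 in control imiquimod and 6206 in control untreated, and the shallowest barcode kept in labelled-null imiquimod had 3039 UMIs against 1413 to 1456 in the others. The summed UMIs on which levels rest were 268317 in labelled-null imiquimod, 481400 in labelled-null untreated, 340375 in control imiquimod and 1.00192e+06 in control untreated. A level is given as CPM of those sums, and intervals in brackets are exact at 95% and cover counting error only. Across libraries 267 of 23188 distinct barcode sequences occurred more than once, and no member shared its sequence with another member.

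The C1q sum of members reached at most 1.91 per 10000 in labelled-null imiquimod, 2.36 in labelled-null untreated, 4.89 in control imiquimod and 4.51 in control untreated, with a median of 0 in each. Members just inside the limit had 4.89, 4.51 and 3.53, and cells just outside had 6.01, 6.75 and 9.17. For class II the members just inside had 50.4, 53.2 and 56.2 per 10000 and cells just outside 48.3, 44.4 and 41.8. The class II sum was broad, with medians of 378 in labelled-null imiquimod, 651 in labelled-null untreated, 704 in control imiquimod and 643 in control untreated. Between 1 and 2 Cd207 UMIs, under the limit, were seen in 10 members of labelled-null imiquimod, 3 of labelled-null untreated, 2 of control imiquimod and 5 of control untreated.

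Markers named for the cells gave a mixed picture. Cd209a, the mouse DC-SIGN homologue on dendritic cells that arise from monocytes and on type 2 cells, stood at 67.1 CPM in labelled-null imiquimod, 879 in labelled-null untreated, 661 in control imiquimod and 917 in control untreated. Il1b, the inflammatory cytokine interleukin-1 beta, stood at 1558, 2152, 1437 and 1093 CPM in that order. Flt3, the receptor that dendritic cell precursors need, had 11, 18, 14 and 33 UMIs in all, or 32.9 to 41.1 CPM. Cd209a was thus sparse in labelled-null imiquimod and abundant in the other libraries. Xcr1 of type 1 dendritic cells had 2, 4, 0 and 8 UMIs in the same order of libraries. Xcr1 is 1 gene of the type 1 list, whose shares of members are given further on. None of the 8 mast cell and basophil markers had a UMI in any member.

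RNA of structural skin cells ran through the members. Keratin and collagen transcripts (Krt5, Krt14, Krt1, Krt10, Col1a1, Col1a2, Col3a1 and Dcn) together passed 100 per 10000 UMIs in 10 members of labelled-null imiquimod, 15 of labelled-null untreated, 15 of control imiquimod and 50 of control untreated, or 90 of 283. Median depth was 10383 UMIs in those 90 and 4755 in the rest. A Dcn UMI (decorin, of fibroblasts) was seen in 85.7%, 94.2%, 96.4% and 90.8% of members, against 94.2%, 94.3%, 95.4% and 91.6% of cells outside the immune gate, whose median depths were 8628, 5828.5, 4843 and 5943 UMIs. A level of such a gene is therefore no sign of expression by members, and results are also given for the 18, 54, 40 and 81 members under that limit, called members with little structural RNA. All 8 fibroblast markers were detected in members of every library, with a summed level of 15787 CPM in labelled-null imiquimod, 25920 in labelled-null untreated, 12034 in control imiquimod and 49563 in control untreated, and 706 to 3669 CPM with little structural RNA. All 8 keratinocyte markers were detected too, at 2180 to 4020 CPM, while Ms4a1 and Bank1 of B cells and Retnlg of neutrophils were at 0 throughout. Scrublet called 1 member a doublet, but in labelled-null untreated it marked 0.113% of cells, so it has not worked there, and no member was left out.

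Counted cell by cell, the members were a mixture whose make-up differed between libraries. At least 3 markers of mature migratory dendritic cells (from Ccr7, Fscn1, Ccl22, Ccl17, Cacnb3, Socs2, Il4i1, Nudt17, Apol7c and Zmynd15) had a UMI in 13 of 28 members of labelled-null imiquimod (46.4%, 27.5 to 66.1), 2 of 69 of labelled-null untreated (2.90%, 0.353 to 10.1), 9 of 55 of control imiquimod (16.4%, 7.77 to 28.8) and 11 of 131 of control untreated (8.40%). Outside the immune gate those shares were 1.17%, 0.477%, 0.345% and 0.458%, and after each member was thinned to 1000 UMIs they were 39.3%, 1.45%, 10.9% and 3.05%. At least 3 of the type 2 dendritic cell markers were seen in 7 of 28 members (25%) of labelled-null imiquimod, 54 of 69 (78.3%) of labelled-null untreated, 39 of 55 (70.9%) of control imiquimod and 100 of 131 (76.3%) of control untreated. Thinned, these type 2 shares were 0% of 28 in labelled-null imiquimod, with an exact upper bound of 12.3%, and 29.0%, 29.1% and 31.3% in the others; outside the gate they were at most 0.139%. Mature markers were most frequent, and type 2 markers least frequent, in labelled-null imiquimod members.

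**Figure D1:**
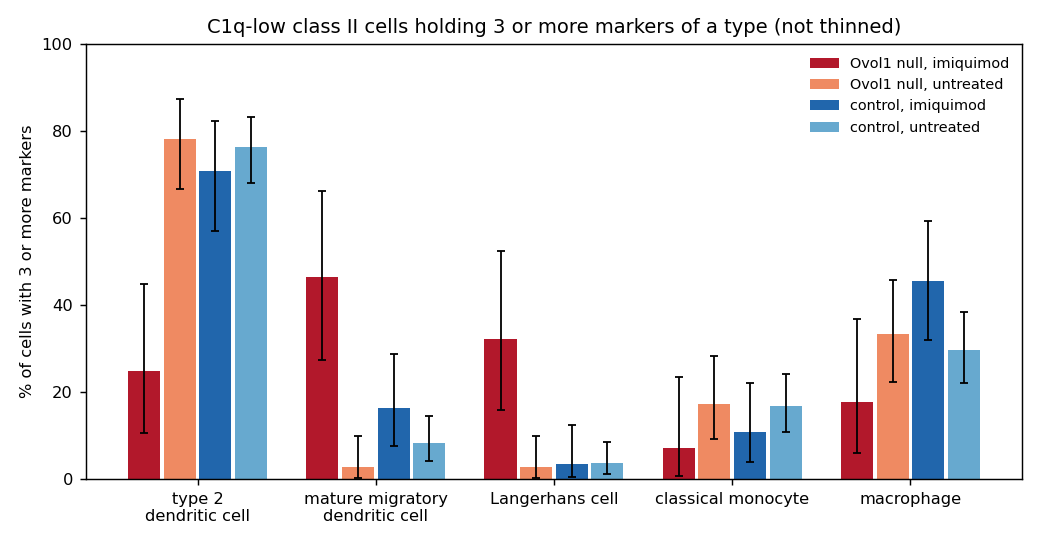
Share of members (percent, vertical axis) with UMIs of at least 3 genes of each marker list, by library, with exact Clopper-Pearson 95% intervals as bars. In labelled-null imiquimod 46.4% of members had mature migratory markers and 25% had type 2 markers, while in the other 3 libraries 70.9% to 78.3% had type 2 markers.

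Other myeloid markers were also seen. Langerhans cell markers, at least 3 of 5 (among them Cd207, which the rule limits), were seen in 9 members (32.1%) of labelled-null imiquimod, 2 (2.90%) of labelled-null untreated, 2 (3.64%) of control imiquimod and 5 (3.82%) of control untreated, against 2.34%, 1.59%, 0.945% and 0.882% outside the gate. All 5 genes of the list were detected in each library, summing to 1718, 127, 288 and 166 CPM in members in that order. Of these Mfge8, which encodes a bridging protein for dying cells, stood at 1200 CPM in labelled-null imiquimod and 27.0 in labelled-null untreated. In control imiquimod it stood at 126 CPM and in control untreated at 41.9. The 9, 2, 2 and 5 members with at least 3 Langerhans cell markers included 5, 0, 1 and 0 with at least 3 mature markers. Classical monocyte markers were seen in 2 (7.14%), 12 (17.4%), 6 (10.9%) and 22 (16.8%) members in the same order. Macrophage markers other than C1q were seen in 5 (17.9%), 23 (33.3%), 25 (45.5%) and 39 (29.8%). These lists share genes with dendritic cells, so the counts overlap and do not add up to the members. Type 1 dendritic cell markers, at least 3 of 8, were seen in 10.7%, 11.6%, 3.64% and 9.92% of members in the same order. Outside the gate the type 1 shares were 0.264%, 0.0993%, 0.0909% and 0.106%. In thinned members they were 0%, 1.45%, 0% and 0.763%. The type 1 list summed to 727, 538, 361 and 329 CPM in members.

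Leiden clustering of the members alone gave 10 clusters. Those of 41, 28 and 19 cells had at least 7 fibroblast or keratinocyte markers raised, and 1 of 24 cells, led by Saa3, Serpina3n and Pla2g2e, had only 2 fibroblast markers raised but 23 cells over the limit of structural RNA. A cluster of 16 cells was mature migratory dendritic cell-like, led by Ccl22, Fscn1, Mfge8, Tnfrsf9 and Zmynd15. It held 9 cells of labelled-null imiquimod, 0 of labelled-null untreated, 5 of control imiquimod and 2 of control untreated. This cluster also had 2 Langerhans cell markers raised, Mfge8 and Ltc4s. The other 5 were left unnamed. In 4 of them no list had 3 markers raised. One of these, of 21 cells, was led by Fcgr1, Cd72, Ifi27l2a, Isg15 and Rtp4 and held 9, 0, 9 and 3 cells. Another, of 33 cells, was led by Cd7, Cd209e and Mgl2 and held 0, 14, 19 and 0. A group of 21 led by Ptgs2, Cxcl2 and Nlrp3 held 0, 5, 0 and 16, while the fifth, of 47 cells led by Lyz2, Ccl6 and Clec10a, held 0, 6, 0 and 41. That cluster had 3 classical monocyte markers raised (Ly6c2, Ccr2 and F13a1). It also had 2 of type 2 dendritic cells (Cd209a and Clec10a) and 2 of macrophages (Mrc1 and Adgre1) raised. Its 10 leading genes held none of the monocyte markers. Only the 16-cell cluster had at least 3 markers of 1 dendritic cell or monocyte list raised and markers of that same list leading. Each cluster was set against the other members, so markers that most members carried could hardly be raised in any cluster. An unnamed cluster is therefore not shown to lack dendritic cells or monocytes. With 1 library per group, a cluster mostly of 1 library may be that library and not a kind of cell.

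Maturation genes were higher in labelled-null imiquimod than in the libraries it was set against. Against labelled-null untreated 10 of 10 measured genes of the mature list were at least 2-fold higher and 0 lower, with a median log2 ratio of 4.10, where 14.8% of 3830 genes measured (at least 20 UMIs over both libraries) were 2-fold higher, 9.69% were 2-fold lower and the median of all was 0.16. In control skin, imiquimod against untreated, 6 of 8 were higher and 0 lower (median 1.28), where 6.24% of 5733 genes were higher, 9.65% were lower and the median of all was 0.00. Between the 2 imiquimod libraries, labelled null against control, 9 of 10 were higher (median 2.40; 11.6% of 3290 genes higher, 8.05% lower, median 0.11). Between the untreated libraries, labelled null against control, 2 of 8 were higher and 5 lower (median -1.59; 3.01% of 6077 genes higher, 6.2% lower, median -0.04). These percentages are the background for every later count in members in the same comparison. No share over all genes was computed for the other kept cells, so list counts in those cells are given as a description only. With little structural RNA the same counts were 10 of 10 higher, 4 of 7 higher with 1 lower, 10 of 10 higher, and 0 of 4 higher with 3 lower (backgrounds higher 18.1%, 9.29%, 12.1% and 4.33%, lower 14.5%, 7.87%, 10.8% and 4.66%). These comparisons share libraries and are not independent of each other.

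Fscn1, for fascin, stood at 1454 CPM in labelled-null imiquimod, 16.6 in labelled-null untreated, 279 in control imiquimod and 57.9 in control untreated. The ratio of imiquimod to untreated was 87.5 (44.0 to 204) in labelled null and 4.82 (3.44 to 6.80) in control, and labelled null to control after imiquimod 5.21 (4.15 to 6.59). Ccl22, whose product draws CCR4-bearing T cells, stood at 984, 6.23, 170 and 91.8 CPM in the same order, where the second value is 3 UMIs and the ratio to it 158 (53.4 to 770). Fscn1 and Ccl22 thus had their highest level in labelled-null imiquimod and their lowest in labelled-null untreated. Ccr7 stood at 757 CPM in labelled-null imiquimod, 199 in labelled-null untreated, 303 in control imiquimod and 85.8 in control untreated, but a single cell held 88.5% of the labelled-null untreated UMIs. The imiquimod ratio of Ccr7 was 3.79 (2.96 to 4.89) in labelled null and 3.53 (2.62 to 4.75) in control.

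Il4i1, a secreted amino acid oxidase that dampens T cells, stood at 291 CPM in labelled-null imiquimod, 4.15 in labelled-null untreated, 52.9 in control imiquimod and 25 in control untreated. Cacnb3, a calcium channel subunit used as a marker of these cells, stood at 261, 22.9, 32.3 and 8.98 CPM, and Zmynd15 at 324, 2.08, 20.6 and 11 CPM, in that order. Ccl17, the partner chemokine of Ccl22, did not follow: it stood at 242 CPM in labelled-null imiquimod, 43.6 in labelled-null untreated, 217 in control imiquimod and 266 in control untreated, where 1 cell held 89.5%. Among all other kept cells Ccr7 was at 15.6, 0.816, 5.97 and 2.96 CPM and Ccl22 at 9.38, 0.0314, 1.33 and 0.400 CPM, lower than in members throughout. In those other cells the mature list had 6 of 10 genes higher in labelled-null imiquimod than untreated (median log2 ratio of 2), 5 of 9 in control (1.01), and 6 of 10 in labelled null than control after imiquimod (1.44).

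**Figure D2:**
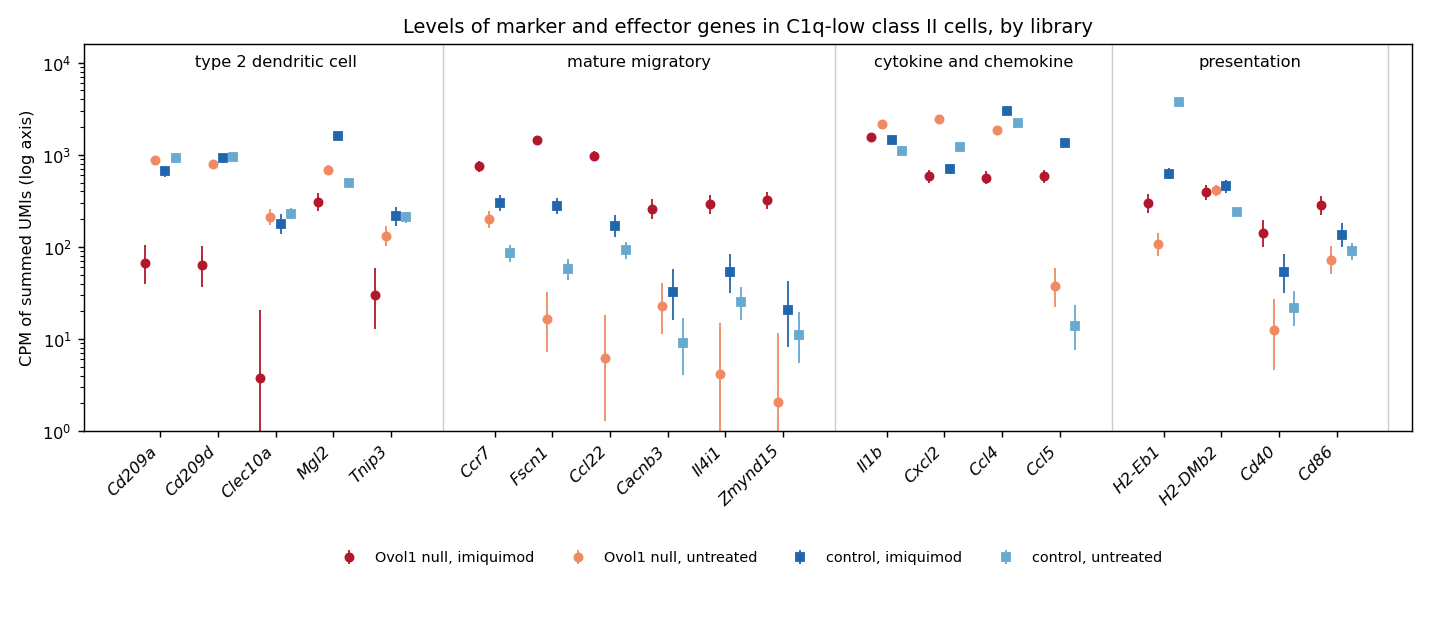
Level of each gene in the summed members of each library (CPM, log axis from 1) with exact Poisson 95% intervals, in 4 panels: type 2 dendritic cell genes, maturation genes, cytokines and chemokines, and antigen presentation and costimulation. Labelled-null imiquimod stands highest for Fscn1 at 1454 CPM and lowest for Cd209a at 67.1 CPM.

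Type 2 lectins ran the other way. Against labelled-null untreated, 5 of 6 measured type 2 genes were lower in labelled-null imiquimod and 0 higher (median -2.85), and against control imiquimod 5 of 6 were lower and 0 higher (median -3.03). In control skin 1 of 7 was higher and 1 lower after imiquimod (median -0.07), and between untreated libraries none of 7 passed the fold (median -0.14). With little structural RNA the counts were 4 of 6 lower, 5 of 6 lower, 1 higher and 1 lower of 7, and 1 of 7 lower. Cd209a was 13.1-fold (8.19 to 22.3) lower in labelled-null imiquimod than in labelled-null untreated and 9.85-fold (6.09 to 16.9) lower than in control imiquimod, and its ratio was 0.721 (0.620 to 0.835) for imiquimod against untreated in control. Members with little structural RNA gave a Cd209a ratio of 0.0170 (0.00205 to 0.0620) to labelled-null untreated and 0.0178 (0.00214 to 0.0654) to control imiquimod. Both ratios were lower than in all members, but the wide intervals overlapped those of all members. The type 2 list was lower in other cells of labelled-null imiquimod as well, at far lower levels, with 4 of 7 genes lower and 1 higher than untreated (median -1.60) and 5 of 7 lower and 2 higher than in control imiquimod (median -1.93). In C1q macrophages its 7 genes summed to 273 CPM in labelled-null imiquimod, 2519 in labelled-null untreated, 976 in control imiquimod and 2765 in control untreated, so that library was lowest there too.

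Cd209d, a neighbouring lectin gene of the same family, stood at 63.4 CPM in labelled-null imiquimod, 804 in labelled-null untreated, 914 in control imiquimod and 959 in control untreated. Clec10a, a lectin for galactose-type sugars, had 1 UMI in labelled-null imiquimod (3.73 CPM) against 214 CPM in labelled-null untreated, 179 in control imiquimod and 231 in control untreated. Mgl2, its close relative and a marker of dermal type 2 cells, stood at 309, 690, 1598 and 497 CPM in that order. Mgl2 was 2.23-fold (1.75 to 2.87) lower after imiquimod in labelled null and 3.22-fold (2.84 to 3.64) higher after imiquimod in control. Cd209e, another lectin of the Cd209 family, behaved likewise, at 14.9 CPM (4 UMIs, all from 1 cell) in labelled-null imiquimod, 156 in labelled-null untreated, 452 in control imiquimod and 116 in control untreated. Paralogous lectins can share 3′ reads, so the split between Cd209 genes and between Clec10a and Mgl2 is uncertain.

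Cd209a was low in labelled-null imiquimod members with and without maturation genes, while Mgl2 was not low throughout, in a description of cells split by their own markers. In labelled-null imiquimod the 13 members with at least 3 mature markers had 7.88 CPM of Cd209a and 94.5 of Mgl2, and the 15 members with fewer had 120 and 502 CPM. Members with fewer than 3 mature markers had 928 CPM of Cd209a and 737 of Mgl2 in labelled-null untreated, 783 and 1899 in control imiquimod, and 974 and 518 in control untreated. The 502 CPM of Mgl2 in labelled-null imiquimod was thus close to the level in control untreated. Over the wider list of C-type lectins, 9 of 13 measured were lower and 1 higher in labelled-null imiquimod than untreated, and 8 of 11 were lower and 0 higher than in control imiquimod. In control skin 5 of 14 were higher and 2 lower after imiquimod, among them Clec4a3, an inhibitory lectin, at 394 CPM after imiquimod and 105 CPM untreated, a ratio of 3.76 (2.89 to 4.90). Genes at 0 in labelled-null imiquimod included Cd7 and Cd163, a haemoglobin scavenger receptor. Cd7 was at 51.9 CPM in labelled-null untreated and 206 CPM in control imiquimod, and was at least 4.64-fold and 18.4-fold lower in labelled-null imiquimod, with 3 counts as the floor in that library.

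Class II presentation genes that the rule did not use leaned lower in labelled null between the imiquimod libraries. There 0 of 8 measured were higher and 3 lower (median -0.93), where 8.05% of all genes were lower. In labelled-null imiquimod against untreated 1 of 7 was higher and 1 lower (median -0.08). In control imiquimod against untreated 2 of 9 were higher and 1 lower (median 0.70), where 6.24% of all genes were higher. Between untreated libraries 1 of 9 was lower (median 0.02). H2-Eb1, described next, was 1 of the 3 lower genes between the imiquimod libraries, but in control imiquimod 1 cell held most of its UMIs. The count without that cell was not computed. H2-Eb1 was also the 1 gene higher after imiquimod in labelled null. It was the 1 gene lower after imiquimod in control and the 1 lower between untreated libraries. H2-Aa and Cd74, which the rule used, stood at 11613 and 18780 CPM in labelled-null imiquimod, 16884 and 30964 in labelled-null untreated, 19904 and 33399 in control imiquimod, and 14291 and 32552 in control untreated.

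H2-Eb1 differed widely between libraries. It stood at 298 CPM in labelled-null imiquimod, 108 in labelled-null untreated, 623 in control imiquimod and 3785 in control untreated. Control untreated was thus far above the other 3, and in control imiquimod a single cell held 75.5% of the UMIs. Labelled-null untreated was 35.0-fold (26.7 to 47.0) lower than control untreated, and control imiquimod was 6.08-fold (5.29 to 7.01) lower than control untreated. Labelled-null imiquimod, by contrast, was 2.76-fold (1.92 to 3.99) above labelled-null untreated. Relative to H2-Aa in the same cells, H2-Eb1 had 0.0257 UMIs per H2-Aa UMI in labelled-null imiquimod, 0.00640 in labelled-null untreated, 0.0313 in control imiquimod and 0.265 in control untreated.

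In control untreated nearly every member carried the transcript. A UMI of H2-Eb1 was seen in 67.9%, 49.3%, 49.1% and 99.2% of members in that order of libraries, and after thinning in 21.4%, 7.25%, 14.5% and 90.8%. Outside the immune gate, in cells that should lack class II, it was seen in 1.38%, 1.83%, 1.94% and 6.08%. The median member had 2.58 per 10000 in labelled-null imiquimod, 0 in labelled-null untreated, 0 in control imiquimod and 41.8 in control untreated. The same held beyond the members. In C1q macrophages H2-Eb1 per H2-Aa was 0.0154 in labelled-null imiquimod, 0.0253 in labelled-null untreated, 0.00629 in control imiquimod and 0.367 in control untreated, and in Langerhans-gated cells 0.0207, 0.00885, 0.00975 and 0.265. CD1 is an outbred stock and the animals per library are not given, so a trait of the animals cannot be told apart from the condition.

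**Figure D3:**
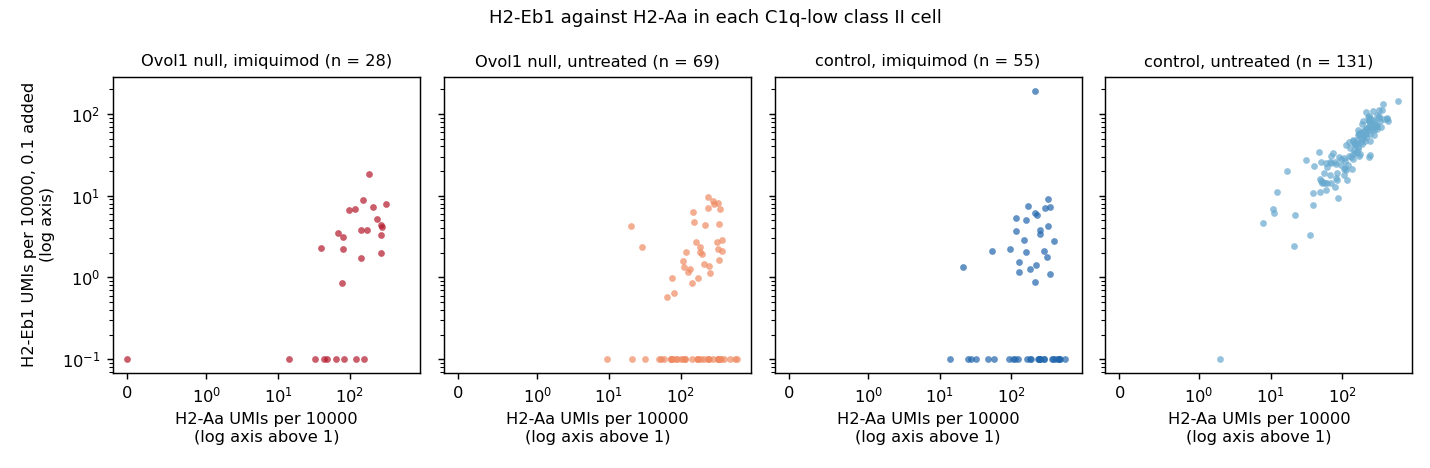
H2-Eb1 against H2-Aa in every member (UMIs per 10000 on both axes), with a panel for each library. In control untreated the members lie along a rising band with a median H2-Eb1 of 41.8 per 10000, while in the other 3 libraries nearly all lie near 0 at like H2-Aa.

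Interferon-stimulated genes were higher after imiquimod in both genotypes. In labelled null 10 of 11 measured genes of the list were at least 2-fold higher and 0 lower (median 2.71), and in control 14 of 15 were higher and 0 lower (median 2.48). With little structural RNA it was 7 of 7 (median 2.53) and 10 of 11 (median 3.15). Between the imiquimod libraries 0 of 14 were higher and 1 lower in labelled null (median -0.05), and between the untreated libraries none of 10 passed the fold (median -0.10). Both imiquimod libraries stood above both untreated libraries for each gene described next.

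Irf7, the transcription factor that amplifies interferon production, stood at 209 CPM in labelled-null imiquimod, 2.08 (1 UMI) in labelled-null untreated, 241 in control imiquimod and 5.99 in control untreated. Its imiquimod ratio was 100.5 (17.3 to 4038) in labelled null and 40.2 (17.7 to 113) in control. Isg15, whose promoter window is printed above, stood at 339 CPM, 35.3 CPM, 253 CPM and 21.0 CPM in that order, with ratios of 9.60 (5.68 to 17.2) in labelled null and 12.1 (7.41 to 20.5) in control. Bst2 stood at 712 CPM in labelled-null imiquimod, 81.0 in labelled-null untreated, 497 in control imiquimod and 139 in control untreated. The smaller imiquimod ratio of Bst2 in control, 3.58 (2.84 to 4.51) against 8.79 (6.20 to 12.7) in labelled null, went with a higher untreated level. Ifi27l2a, an interferon-induced mitochondrial protein, was the 1 gene lower in labelled null among the imiquimod libraries, at 1055 CPM in labelled-null imiquimod and 2565 CPM in control imiquimod, 2.43-fold lower; untreated it stood at 160 CPM in labelled null and 264 CPM in control.

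Cells outside the members showed the same genes. Among all other kept cells 29 of the 30 listed interferon-stimulated genes were at least 2-fold higher after imiquimod in labelled null (median log2 3.21) and 28 of 30 in control (median 2.42). A share over all genes in those cells was not computed. Irf7 in those cells stood at 367 CPM in labelled-null imiquimod, 3.58 in labelled-null untreated, 186 in control imiquimod and 6 in control untreated. RNA of other cells reached the members, as the Dcn shares show, and its part in the interferon result was not tested.

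**Figure D4:**
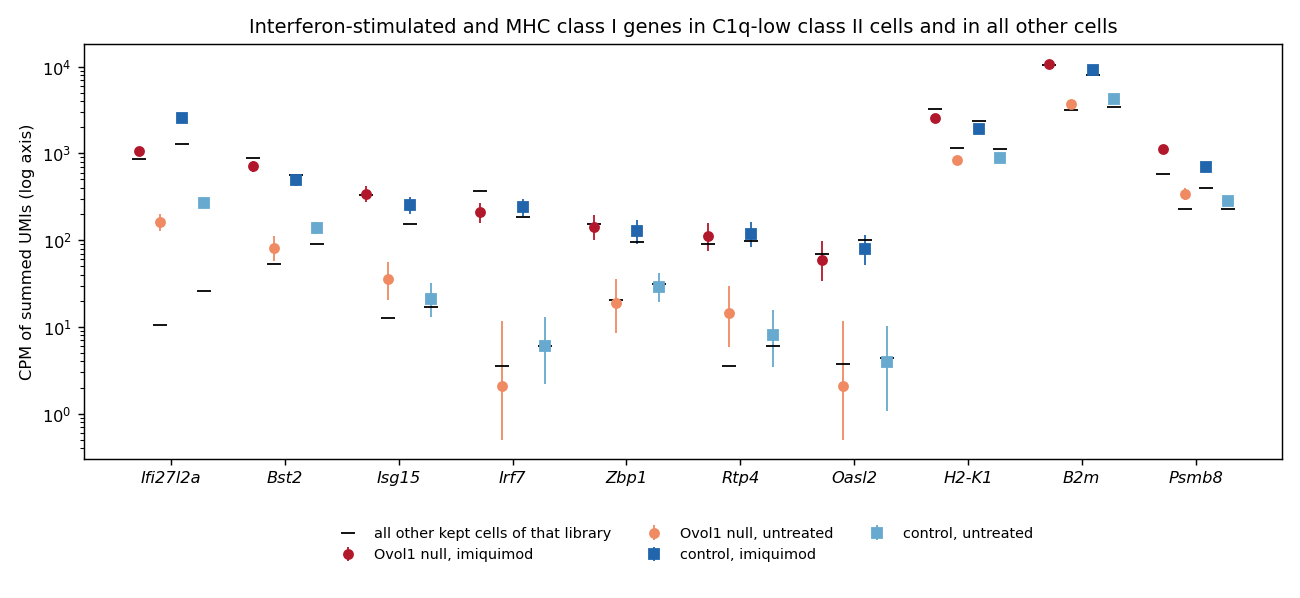
Level of interferon-stimulated and class I genes in members of each library (CPM, log axis) with exact Poisson 95% intervals, and black dashes for all other kept cells of that library. Irf7 stands at 209 and 241 CPM in the imiquimod libraries and at 2.08 and 5.99 CPM in the untreated ones, with the dashes in like positions.

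Class I presentation followed the same split with smaller ratios. After imiquimod 8 of 11 measured genes were higher in labelled null (median 1.54) and 6 of 12 in control (median 0.92), with 0 lower in either. H2-K1, a classical class I heavy chain, stood at 2557 CPM in labelled-null imiquimod, 845 in labelled-null untreated, 1921 in control imiquimod and 891 in control untreated, and B2m, its light chain, at 10637, 3662, 9011 and 4200 CPM. Psmb8, a subunit of the immunoproteasome that cuts peptides for class I, stood at 1129, 339, 693 and 284 CPM in that order. The imiquimod ratio of B2m was 2.90 (2.74 to 3.08) in labelled null. Psmb9, another subunit of that proteasome, differed between imiquimod libraries, at 552 CPM in labelled null and 185 CPM in control, a ratio of 2.98 (2.20 to 4.07). In all other kept cells 7 of 13 class I genes were higher after imiquimod in labelled null and 6 of 13 in control, with medians of 1 and 0.91.

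Costimulatory genes were higher after imiquimod in part. Of 5 measured in labelled null 3 were higher and 1 lower after imiquimod, and of 6 in control 3 were higher and 0 lower. Cd40, through which helper T cells license dendritic cells, stood at 142 CPM in labelled-null imiquimod, 12.5 in labelled-null untreated, 52.9 in control imiquimod and 22.0 in control untreated. Cd86, a ligand of CD28, stood at 283, 72.7, 135 and 89.8 CPM, and Cd274, which encodes the inhibitory ligand PD-L1, at 130, 24.9, 82.3 and 26.9 CPM. The exception was Tnfsf9, the ligand of 4-1BB, at 93.2 CPM in labelled-null imiquimod, 247 in labelled-null untreated, 444 in control imiquimod and 251 in control untreated, which made it 4.76-fold (3.10 to 7.59) lower in labelled null than in control after imiquimod. Within labelled-null imiquimod, Cd40 stood at 260 CPM in the members with at least 3 mature markers and 35.4 CPM in those with fewer. In the same split Cd274 stood at 260 and 14.1 CPM, and Cd86 at 441 and 141 CPM. The part of the mature-marker members in the differences between libraries was not tested. With mature-marker members left out, the log2 ratio of Cd86 was 0.96 for imiquimod against untreated in labelled null and 0.18 for labelled null against control after imiquimod. Cd83 lay between 426 and 492 CPM in the 4 libraries. Tnfrsf9, the receptor for Tnfsf9, had 46 UMIs over 10 members in labelled-null imiquimod (171 CPM) and none in labelled-null untreated, at least 27.5-fold higher with 3 counts as the floor, and stood at 11.8 and 2.99 CPM in control imiquimod and control untreated.

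Cytokine transcripts moved little. None of 5 measured was higher and 1 was lower after imiquimod in labelled null, and none of 7 passed the fold in control. Il1b after imiquimod was at 0.724 of the untreated level in labelled null and 1.31 of it in control, and was 1.97-fold (1.81 to 2.15) higher in labelled null than in control untreated. None of these Il1b ratios reached 2-fold.

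Chemokines divided. Of 14 measured in labelled null 5 were higher and 6 lower after imiquimod, and of 16 in control 3 were higher and 2 lower. Ccl5, which draws T cells and natural killer cells, stood at 589 CPM in labelled-null imiquimod (1 cell held 53.2%), 37.4 in labelled-null untreated, 1331 in control imiquimod and 14 in control untreated. Its imiquimod ratio was 15.7 (9.65 to 27.3) in labelled null and 95.2 (56.2 to 176) in control, and other kept cells had 53.5, 1.98, 27.1 and 13 CPM. Cxcl16, a membrane-bound ligand of CXCR6, stood at 630 CPM in labelled-null imiquimod, 95.6 in labelled-null untreated, 282 in control imiquimod and 150 in control untreated. In labelled-null imiquimod Cxcl16 was at 969 CPM in mature-marker members and 325 CPM in the rest. Ccl2, a monocyte attractant, stood at 660, 465, 347 and 152 CPM, with the largest gap between the untreated libraries, a ratio of 3.07 (2.49 to 3.79) for labelled null to control.

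Several inflammatory chemokines were lowest in labelled-null imiquimod. Ccl4 stood at 563 CPM there, 1867 in labelled-null untreated, 2970 in control imiquimod and 2234 in control untreated, 5.28-fold (4.44 to 6.30) lower in labelled null than in control after imiquimod. Cxcl2, a neutrophil attractant, stood at 589, 2447, 699 and 1210 CPM in that order. It was 4.16-fold (3.52 to 4.94) lower after imiquimod in labelled null, and 2.02-fold (1.87 to 2.19) higher in labelled null than in control untreated. Ccl6 stood at 14.9, 199, 159 and 169 CPM and Ccl9 at 190, 530, 602 and 494 CPM, both macrophage inflammatory protein-related chemokines. Ccl7 went with structural RNA: at 894 CPM in labelled-null imiquimod and 291 in labelled-null untreated it was higher in all members, but its log2 ratio was -2.00 in members with little structural RNA.

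Transcription factors and Fc receptors gave few steps. Irf8, which type 1 dendritic cells and monocytes need, stood at 369 CPM in labelled-null imiquimod, 118 in labelled-null untreated, 44.1 in control imiquimod and 50.9 in control untreated, 8.37-fold (4.84 to 15.5) higher in labelled null than in control after imiquimod. In labelled-null imiquimod 75 of its UMIs lay in mature-marker members (591 CPM) and 24 in the rest (170 CPM), where they came from 2 cells; in control imiquimod the levels were 189 and 10.8 CPM. Relb, a maturation factor of the NF-kB family, stood at 194, 51.9, 49.9 and 45.9 CPM. Fcgr1, the high-affinity receptor for IgG, was higher after imiquimod in both genotypes, at 108 CPM in labelled-null imiquimod, 10.4 in labelled-null untreated, 61.7 in control imiquimod and 2.99 in control untreated. Fcgr4, another activating IgG receptor, stood at 7.45, 0, 73.4 and 3.99 CPM in that order; the difference between genotypes was not tested. Ly6c2, a classical monocyte gene, stood at 7.45, 29.1, 106 and 43.9 CPM, and Ccr2, the receptor for Ccl2, at 29.8, 137, 79.3 and 118 CPM. Both were lowest in labelled-null imiquimod, where 4 of 4 measured classical monocyte genes were lower than in control imiquimod.

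Some of the widest ratios belonged to genes of other cells or to a single barcode. S100a8, an alarmin of neutrophils and inflamed keratinocytes, stood at 5609 CPM in labelled-null imiquimod and 0, 2.94 and 0.998 CPM in the others, but 1 cell held 90.0% and other kept cells of the same library had 5152 CPM. It was detected in 71.4% of labelled-null imiquimod members and 72.5% of cells outside the gate, at median depths of 7996 and 8628 UMIs. The keratin Krt16 had 96.4% of its labelled-null imiquimod UMIs in 1 cell and Mup17 98.7% in 1 control untreated cell. The UMIs of Retnla in labelled-null untreated, 125 in all, came from a single cell. These genes say little of the members as a whole.

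Members were then set beside the other class II cells of the same 4 libraries. C1q macrophages passed every step but had at least 5 C1q UMIs per 10000, with 11 cells in labelled-null imiquimod, 10 in labelled-null untreated, 19 in control imiquimod and 30 in control untreated. Langerhans-gated cells had at least 3 Cd207 UMIs and numbered 57, 16, 7 and 27. Because C1q or Cd207 UMIs of the same cells drew the line, genes that travel with them had to differ, so folds are given as a description with no p for any gene, and the 4 libraries are of different conditions. Log2 folds are from edgeR with the library as a block, with the SE.

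In edgeR's quasi-likelihood test at a Benjamini-Hochberg adjusted p under 0.05, 56 of 3071 genes were higher (1.82%) and 72 lower (2.34%) in members than in C1q macrophages, and nothing is read from those counts. Macrophage genes were lower. Pf4, a chemokine first known from platelets and also made by resident macrophages, averaged 13 ± 12.6 CPM in members and 2777 ± 1603 CPM in macrophages (SD, n = 4 libraries), a log2 fold of -7.78 ± 0.50. Csf1r, the receptor that macrophages need to survive, gave -1.87 ± 0.36 and Adgre1, which encodes F4/80, -1.81 ± 0.24. Ccl8, a monocyte attractant, stood at 72.7 to 127 CPM in members and 2518 to 13122 CPM in macrophages. All of these were lower in members in 4 of 4 libraries.

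Chemokines set the populations apart in both directions. Cxcl2 stood at 589, 2447, 699 and 1210 CPM in members, against 91.0, 482, 132 and 235 CPM in macrophages (log2 fold 2.55 ± 0.19), and Ccl17 averaged 192 ± 101 CPM in members and 9.40 ± 10.9 CPM in macrophages (4.32 ± 0.48). Il1b was also higher in 4 of 4 libraries (1.64 ± 0.39), as were Mmp12, a macrophage elastase (2.80 ± 0.60), and H2-DMb2, a chaperone for class II loading (1.65 ± 0.27). Of the type 2 list 0 of 6 measured passed the test in either direction (median 1.02), and of the interferon-stimulated list 0 of 14 (median -0.63). Genes of fibroblasts, 4 of 7 higher in members, were 0 of 6 with little structural RNA, where Col3a1 gave -0.38 and Dcn -0.58. With little structural RNA, 57 of 1678 genes (3.4%) were higher and 75 (4.47%) lower.

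**Figure D5:**
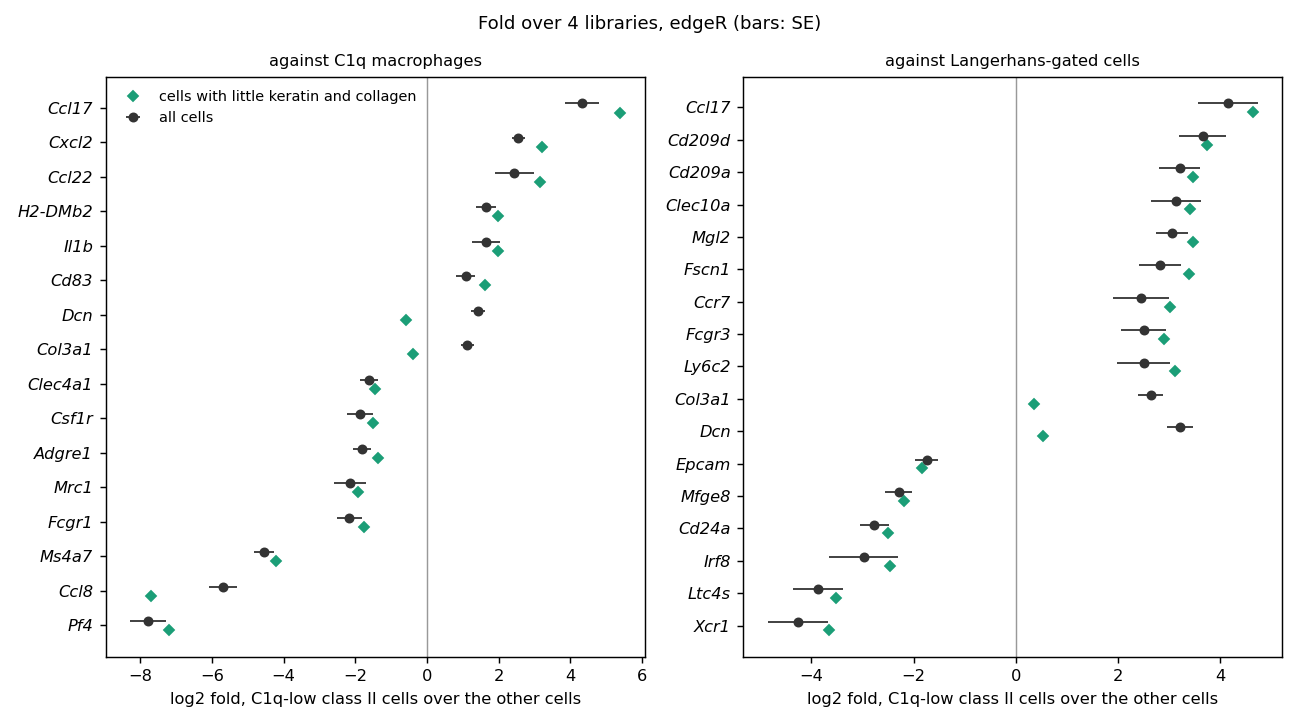
Log2 fold (members over the other population, horizontal axis) with its SE for named genes against C1q macrophages and against Langerhans-gated cells, from 4 library pairs; green diamonds are cells with little structural RNA. Cd209a lies right of 0 against Langerhans-gated cells at 3.21 and Pf4 left of 0 against macrophages at -7.78.

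Against Langerhans-gated cells 387 of 4483 genes were higher in members (8.63%) and 188 lower (4.19%) at the same threshold of edgeR's quasi-likelihood test, and 109 (3.46%) and 87 (2.76%) of 3147 with little structural RNA. Type 2 lectins were higher in members. Cd209a stood at 67.1, 879, 661 and 917 CPM in members, against 15.2, 185, 66.5 and 35.4 CPM in Langerhans-gated cells (log2 fold 3.21 ± 0.40), and Mgl2 at 309, 690, 1598 and 497 CPM, against 60.8, 89.3, 66.5 and 77.8 CPM (3.06 ± 0.31). In labelled-null imiquimod both populations had their lowest Cd209a value, and only 5 of 28 members had a Cd209a UMI. With little structural RNA the Cd209a ratios of that library were lower still, as given above, so the gap there was not resolved. Of the mature list 7 of 10 were higher in members, among them Fscn1 (2.83 ± 0.40) and Ccr7 (2.46 ± 0.55), of which Ccr7 had no UMI in the Langerhans-gated cells of 2 libraries.

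Langerhans genes were lower in members, 4 of 4 measured. Epcam, an adhesion molecule of Langerhans cells, averaged 128 ± 107 CPM in members and 448 ± 321 CPM in Langerhans-gated cells (-1.74 ± 0.22), Ltc4s, leukotriene C4 synthase, gave -3.86 ± 0.49 and Cd24a, a glycosylated surface protein, -2.77 ± 0.28. Irf8 stood at 369, 118, 44.1 and 50.9 CPM in members, against 382, 975, 1513 and 1029 CPM in Langerhans-gated cells (-2.98 ± 0.67), and Xcr1 at 0 to 8.31 CPM against 16.9 to 316 CPM. Cd207 is also found on type 1 dermal dendritic cells, and the Xcr1 level shows RNA of such cells in the Langerhans-gated set. Zeb2, a transcription factor of type 2 cells and monocytes, was higher in members (1.81 ± 0.36), as was Fcgr3, a low-affinity IgG receptor (2.50 ± 0.44).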

How the data were processed

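Skin cells were profiled by droplet RNA sequencing. The authors deposited a matrix of UMI counts of 27998 genes by 23455 barcodes, made with Cell Ranger 2.1.0 on mm10 per the submitters' processing notes. The barcode suffix gave the library. Members were chosen with the rule in the text, in Python 3.11.15 with scanpy 1.11.5. Counts were summed per library and set against the library's member total (CPM). Between libraries, 1 per group, ratios have exact conditional binomial 95% intervals and no test; log2 ratios add 0.5 UMI, and a list gene needs 20 UMIs over both libraries and 2-fold. Populations were compared on sums with edgeR 4.0.16 (quasi-likelihood, TMM, filterByExpr, library as a block, R 4.3.3), with DESeq2 1.42.0 as an alternative. On simulated counts that test recovered 197 of 200 genes changed 4-fold, for members against macrophages, and called 6 of 2534 unchanged genes. The changed genes were drawn only from the more abundant ones, and the simulation gave every library the same means. It therefore does not show recovery for low genes or for libraries of unlike conditions. Thinning drew 1000 UMIs per cell, of which no member had fewer. Promoters are RefSeq's.

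Members and gene lists were chosen with earlier results of these data known. Named genes are list genes by role and, for each comparison, the genes with the widest change; the few in other roles were chosen after their values were seen. Nothing says whether a library is 1 mouse or several.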

Additional observations from a re-analysis of the deposited data

Results flagged for a closer look

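Over 165 list genes measured in both imiquimod comparisons, 4 moved one way in the library pair labelled null and the other way in the control pair, each beyond 2-fold. The difference is the log2 imiquimod ratio in labelled null minus that in control, and with 1 library per group it was not tested. Mgl2 differed by -2.84 (log2 ratio -1.15 in labelled null and 1.68 in control), and Cd209e by -5.19 (-3.23 in labelled null, where 1 cell held the UMIs after imiquimod, and 1.96 in control). H2-Eb1 differed by 4.06 (1.46 in labelled null and -2.60 in control), where 1 cell held 75.5% of the control imiquimod UMIs. Retnla differed by -9.08 (-7.13 in labelled null and 1.95 in control), with every labelled-null untreated UMI from a single cell.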

How the results depend on the processing

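Between libraries no paired analysis was possible, because the labels give no replicate numbers and each group is 1 library. Members and the other class II populations were paired within each library. Without members over 100 keratin and collagen UMIs per 10000, labelled-null imiquimod kept 18 and control untreated 81, and the type 2 median log2 ratio of labelled null to control untreated was -0.57. With class II at 100 per 10000 or more, the mature median was 6.48 for imiquimod in labelled null and 3.31 for labelled null against control after imiquimod; thinned to 1000 UMIs, imiquimod in labelled null gave 6.56. With mature-marker members left out, an alternative chosen after seeing the data, the type 2 median for imiquimod in control was 0.18. Unthinned shares with type 2 markers were 25%, 78.3%, 70.9% and 76.3% in the order used above, and with mature markers 8.40% in control untreated. Against macrophages the count higher in members was 225 with no filter on low counts, 2 with no library block (16 lower), 37 with at least 500 genes and at most 5% mitochondrial UMIs, 26 with class II at 100 and 37 with 3100 UMIs, and leaving out 1 library gave 21 to 57 higher and 51 to 73 lower. Against Langerhans-gated cells it was 602 with no filter, 92 with no library block (61 lower), 109 with little structural RNA (87 lower) and 118 lower with DESeq2, and leaving out 1 library gave 200 to 433 higher and 86 to 266 lower. Without control imiquimod, control untreated or labelled-null untreated, 33, 35 and 21 genes were higher than in macrophages and 200, 222 and 215 than in Langerhans-gated cells, 96, 86 and 103 lower. Log2 ratios that turned were Ccl7 with little structural RNA, at -2.00 for imiquimod in labelled null and -1.18 for labelled null against control after imiquimod, and Ccr7 with class II at 100, at -2.03 for labelled null against control untreated. Ctla2a, higher in members than in macrophages, was at -0.88 with little structural RNA. TMM scaling shifted every log2 ratio of labelled-null imiquimod to untreated by -0.18 and those of the other comparisons by less than 0.1 and reversed none. The cause was not tested. The 28 members of labelled-null imiquimod limit what can be resolved there.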
